A study of Rattus norvegicus with 30 samples.

Results

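Cort, Sst, Npy, Cck and Vip encode neuropeptides that mark inhibitory interneurons, and their transcripts were followed across rat amygdala samples. Each gene was represented by its probe on the array. The rule called for the probe with the highest mean, but each of the 5 genes had 1 probe, and they are 5 of 13337 genes named on the array. RNA came from the amygdala of 30 adult Sprague Dawley rats, 15 females and 15 males, with 1 array per rat and no genetic alteration named in the labels. Within each sex, 5 rats were controls that underwent behavioural testing without the stressor. The other 10 had been stressed with predator scent, and of these 5 showed a minimal and 5 an extreme behavioural response. Minimal and extreme rats therefore had the same exposure and differ by how they responded. The labels name a separate animal for each array. Every female has a rat name that begins with F, and every male one that ends in R. Sex therefore cannot be told apart from any other difference between these series of rats. The tissue was a dissected block, so fewer cells of a type and less RNA per cell cannot be told apart in any value below.

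Interneurons release GABA, and subsets of them also store peptides in dense-core vesicles. Somatostatin (Sst) and cortistatin (Cort) are related peptides that bind the same somatostatin receptors, and somatostatin cells mostly contact dendrites. Neuropeptide Y (Npy) is often made by the same cells as somatostatin and reduces anxiety-like behaviour when given into the rodent amygdala. Cholecystokinin (Cck) marks a class of basket cells, but many excitatory neurons of cortex and amygdala also make its mRNA. Vasoactive intestinal peptide (Vip) marks interneurons that mainly contact other interneurons.

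The starts of the genes are shown first, as a description, and any link between them and the values below was not tested. RefSeq's promoter table for GRCr8 held 4 of the 5 genes, all except Cck. The cyclic AMP response element, through which cyclic AMP and CREB act on the Sst and Vip genes, has the letters TGACGTCA. Windows of 120 bases before to 30 bases from the annotated start on are printed 5′ to 3′ on the strand of the gene. Capitals mark the half-site TGACG on either strand. The windows are chr11:90461426-90461575 for Sst and chr1:44470360-44470509 for Vip, both on the plus strand, and chr5:164845095-164845244 for Cort on the minus strand.
Sst: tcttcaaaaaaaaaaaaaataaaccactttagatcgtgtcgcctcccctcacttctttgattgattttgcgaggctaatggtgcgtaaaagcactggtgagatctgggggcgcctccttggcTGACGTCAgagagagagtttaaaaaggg
Vip: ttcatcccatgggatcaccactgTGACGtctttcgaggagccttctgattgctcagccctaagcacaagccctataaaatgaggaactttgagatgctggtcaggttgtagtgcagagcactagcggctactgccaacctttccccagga
Cort: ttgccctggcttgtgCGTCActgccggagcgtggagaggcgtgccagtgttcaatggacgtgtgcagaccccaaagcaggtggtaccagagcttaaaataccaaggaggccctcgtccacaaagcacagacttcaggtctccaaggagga
The whole element stood in the Sst window, beginning at base 3 of the annotated transcript. The Vip window held TGACGTC, which is the element without its last base, beginning 97 bases before the start. The Cort window held a single half-site, which began 105 bases before the start. In the full entries of the table, which run from 250 bases before to 50 from the start on, the entry of Npy held no half-site. Of all 33469 promoter entries, 1.83% held TGACGTCA on either strand, 3.22% held TGACGTC and 21.2% held TGACG, and each longer motif includes the shorter. These matches describe letters only.

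Values were log2 intensities on arrays that shared a median of 7.02, and intensities of different probes are not comparable with each other. Of 22523 probes, 13308 exceeded the median of their array in 5 or more samples and were tested, among them all 5 members. The Cort probe was above the array median on 28 of 30 arrays and the other 4 on all 30. Excitatory markers of the amygdala were present on most arrays: Slc17a7, Camk2a and Neurod6 were above the array median on 29, 30 and 27 arrays. The GABA synthesis gene Gad1 was above it on all 30.

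Regional marker scores spanned a wider range over female than over male arrays, by little for hypothalamus and most for thalamus. A marker score is the mean, over the tested genes of a list, of each gene's deviation from its own mean over all arrays. The thalamus score (10 of 13 listed genes tested) lay between -0.53 and 2.15 in females and between -0.64 and -0.34 in males. The hypothalamus score (10 of 14) ranged from -0.33 to 1.32 in females and from -0.54 to 0.89 in males. The score of striatum and central amygdala (14 of 18) spanned -0.85 to 2.31 in females and -0.49 to 1.08 in males. Its list, called striatal below, does not separate striatum from central amygdala. The myelin score (9 of 10) ran from -1.33 to 1.90 in females and from -1.29 to 0.49 in males. The score of pallial excitatory neurons (8 of 14) spread from -1.03 to 0.48 in females and from -0.24 to 0.39 in males. Among defining regional markers, Slc17a6 (thalamus) and Pmch (hypothalamus) were above the array median on all 30 arrays. So were Drd1, Drd2 and Ppp1r1b (striatum and central amygdala). Slc17a6 reached 13.5 in females and 9.76 in males, and Pmch 13.7 and 8.46. The thalamic factor Tcf7l2 was above the median on only 9 arrays, and reached 8.71 in females and 7.15 in males. Female control 3 had the highest striatal score, female extreme 2 and 3 had the highest thalamic scores (2.15 and 1.72), and female extreme 3 also had the highest choroid plexus score (1.96, 4 of 6 genes). In addition, 3 ribosomal protein probes (Rpl37l1, Rpl7 and Rpl23) split the arrays into 16 with higher and 14 with lower signal. All female controls and all male extreme rats were on the lower side and all male controls on the higher side.

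**Figure D1:**
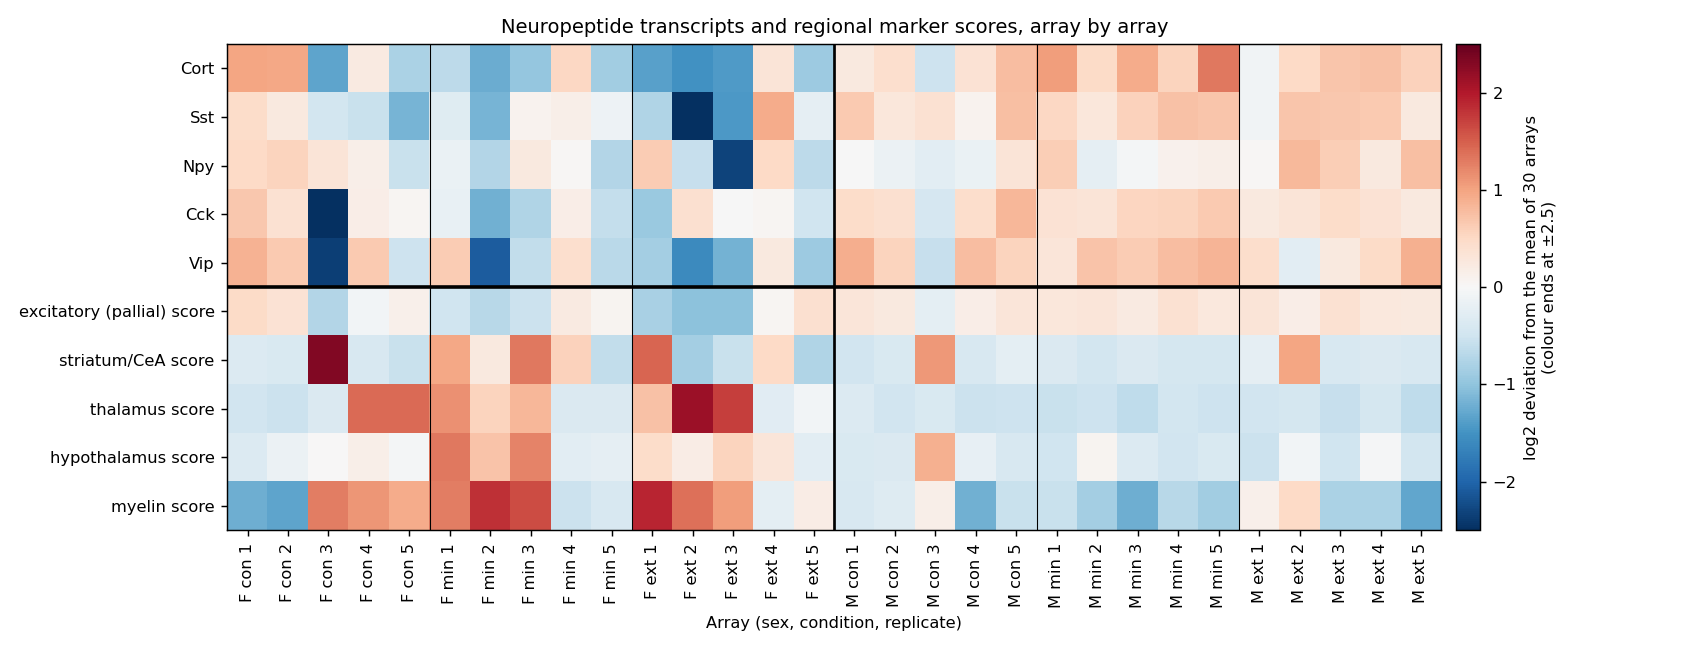
Each column is 1 of the 30 arrays and each row a transcript (upper 5 rows) or a marker score (lower 5 rows), coloured by its log2 deviation from the mean of all arrays, with colours ending at ±2.5. CeA is the central amygdala, F and M are female and male, and con, min and ext are control, minimal and extreme. The deep blue cells of Cck and Vip in female control 3 stand above its striatum score of 2.31, and that of Sst in female extreme 2 above its thalamus score of 2.15.

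Sst, the somatostatin precursor, was high and narrow in males and scattered in females. Its log2 intensities in female control rats 1 to 5 were 10.61, 10.39, 9.69, 9.60 and 8.99, in female minimal rats 9.85, 9.00, 10.25, 10.30 and 10.02, and in female extreme rats 9.39, 7.35, 8.72, 11.07 and 9.93. In males they were 10.81, 10.43, 10.54, 10.25 and 10.90 in controls, 10.67, 10.44, 10.73, 10.88 and 10.85 in minimal rats, and 10.06, 10.85, 10.83, 10.81 and 10.40 in extreme rats. Female extreme rats held both the lowest value of all (rat 2) and the highest (rat 4), and 10 of 15 females lay below the lowest male. Group means ± SD (n = 5) ran from 10.72 ± 0.18 in male minimal, 10.59 ± 0.35 in male extreme and 10.59 ± 0.27 in male control to 9.88 ± 0.53 in female minimal, 9.86 ± 0.65 in female control and 9.29 ± 1.39 in female extreme. The step from male control down to female minimal, 0.70, was 1.34 times the larger SD of that pair, and no other pair of neighbours in this order differed by as much as its larger SD.

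Cort, the precursor of cortistatin, was close to the array median of 7.02 on several female arrays, 2 of which were below it. In females its values were 9.35, 9.33, 7.04, 8.59 and 7.58 in controls, 7.71, 7.13, 7.40, 8.89 and 7.50 in minimal rats, and 7.02, 6.85, 6.94, 8.68 and 7.46 in extreme rats. Male controls had 8.62, 8.78, 7.85, 8.72 and 9.14, male minimal rats 9.42, 8.85, 9.29, 8.92 and 9.68, and male extreme rats 8.28, 8.86, 9.07, 9.09 and 8.94. In females 4 of 5 minimal and 4 of 5 extreme rats were below every male, whereas female controls split into 3 rats within the male range and 2 below it (rats 3 and 5). The order of group means was male minimal (9.23 ± 0.35), male extreme (8.85 ± 0.33), male control (8.62 ± 0.48), female control (8.38 ± 1.04), female minimal (7.73 ± 0.68) and female extreme (7.39 ± 0.76). Only the step from male minimal to male extreme, 0.39, exceeded the larger SD of its pair.

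Npy, the neuropeptide Y precursor, overlapped between the sexes, although 6 of 15 females lay below the lowest male. Female controls had 10.77, 10.83, 10.58, 10.41 and 9.71, female minimal rats 10.09, 9.52, 10.51, 10.29 and 9.52, and female extreme rats 10.90, 9.68, 7.94, 10.76 and 9.60. Male controls had 10.26, 10.12, 10.00, 10.10 and 10.58, male minimal rats 10.87, 10.04, 10.21, 10.37 and 10.41, and male extreme rats 10.29, 11.07, 10.88, 10.51 and 11.01. All 6 groups overlapped, and female extreme 3 stood far below the remaining 29 arrays. Means ran from male extreme (10.75 ± 0.34) through female control (10.46 ± 0.45), male minimal (10.38 ± 0.31), male control (10.21 ± 0.23) and female minimal (9.99 ± 0.45) to female extreme (9.78 ± 1.19). No step in this order was as large as the larger SD of its pair.

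Cck, the cholecystokinin precursor, varied less in males than in females, where 6 of 15 rats lay below the lowest male. Female controls had 14.18, 13.89, 9.99, 13.68 and 13.57, female minimal rats 13.32, 12.31, 12.75, 13.67 and 12.92, and female extreme rats 12.59, 13.91, 13.51, 13.57 and 13.02. Male controls had 13.98, 13.92, 13.10, 13.96 and 14.34, male minimal rats 13.88, 13.83, 14.04, 14.07 and 14.16, and male extreme rats 13.75, 13.84, 13.98, 13.88 and 13.75. Female control 3 stood far below the remaining 29 arrays, and the 5 male extreme rats differed by only 0.10 (SD). Means ran from male minimal (13.996 ± 0.14), male control (13.86 ± 0.46) and male extreme (13.84 ± 0.10) to female extreme (13.32 ± 0.52), female control (13.06 ± 1.73) and female minimal (12.99 ± 0.53). The step from male extreme to female extreme, 0.52, was 1.01 times the larger SD of the pair, and the other steps were smaller than theirs.

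Vip fell into a high male cluster and a wide female range. Female controls had 10.49, 10.29, 7.28, 10.28 and 9.11, female minimal rats 10.27, 7.55, 9.02, 10.05 and 8.96, and female extreme rats 8.78, 8.03, 8.44, 9.87 and 8.73. Male controls had 10.54, 10.19, 9.05, 10.41 and 10.19, male minimal rats 9.93, 10.33, 10.26, 10.40 and 10.48, and male extreme rats 10.07, 9.36, 9.88, 10.12 and 10.51. Of 15 females, 8 lay below the lowest male, and 4 of these were extreme responders. Means ran from male minimal (10.28 ± 0.21), male control (10.08 ± 0.59) and male extreme (9.99 ± 0.42) to female control (9.49 ± 1.35), female minimal (9.17 ± 1.08) and female extreme (8.77 ± 0.68). No step in this order was as large as the larger SD of its pair.

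**Figure D2:**
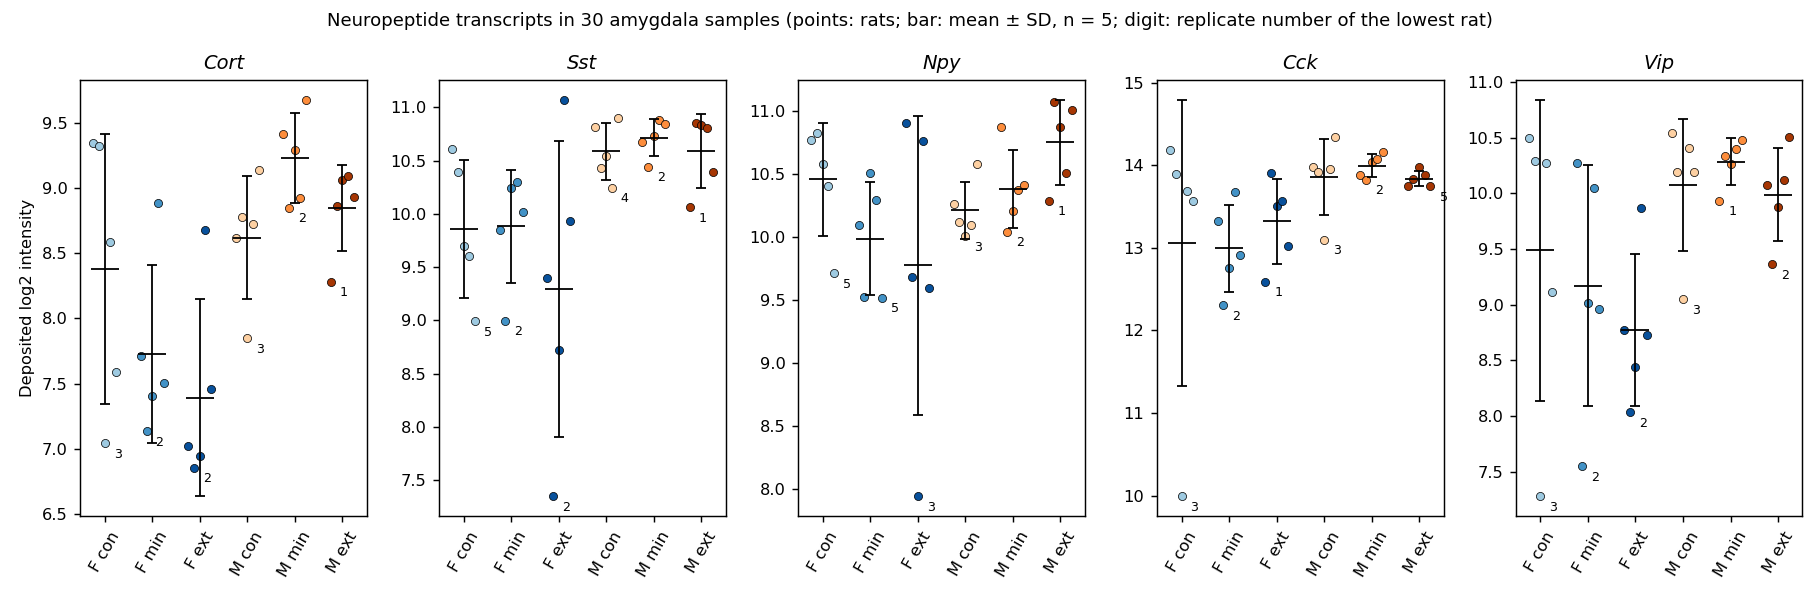
Deposited log2 intensity (y axis, a separate scale per gene) of each rat, by group on the x axis, with the mean and SD of 5 rats as bars and the replicate number of the lowest rat written beside it. Male points sit close together and, except for Npy, high, while females spread downwards, with female control 3 lowest for Cck (9.99) and Vip (7.28), female extreme 2 for Sst (7.35) and Cort (6.85), and female extreme 3 for Npy (7.94).

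The spread within groups was larger in females for 5 of 5 transcripts. The ratio of female to male within-group SD was 3.87 for Cck, 3.40 for Sst, 2.63 for Npy, 2.46 for Vip and 2.15 for Cort. Over all tested probes 64.9% had a larger SD in females, with a median ratio of 1.16. These transcripts were among the most variable on the array: the within-group SD, from 0.59 for Npy to 0.82 for Vip, exceeded that of 98.2% to 99.4% of tested probes.

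Males had higher levels of 4 of the 5 transcripts than females, averaged over the 3 conditions, in the limma fit of 6 group means with p adjusted over all tested probes. The log2 difference ± SE was 1.07 ± 0.22 for Cort (fold 2.10, adjusted p = 0.00156), 0.97 ± 0.28 for Vip (fold 1.96, adjusted p = 0.0151), 0.95 ± 0.24 for Sst (fold 1.94, adjusted p = 0.00559) and 0.77 ± 0.27 for Cck (fold 1.71, adjusted p = 0.0452). Npy had 0.37 ± 0.20 (95% interval -0.04 to 0.79, adjusted p = 0.202). Of all tested probes 19.2% passed in this comparison, 8.99% higher and 10.2% lower in males. The median of the 5 differences was 0.95, against -0.01 over all tested probes. The calls of Cort, Sst and Vip held without any single array. That of Cck was lost in 20 of 30 such fits (0.52 to 0.87, adjusted p 0.00846 to 0.0768). It remained without any of the 5 female controls, female minimal 1 or 4, female extreme 2 or 4, or male control 3. The Cck call was also lost without the intensity filter (adjusted p = 0.0677), with robust variances (0.0598) and with the ribosomal array state as a covariate (0.0626).

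Regional and cell type markers moved with the same sex difference. In males 8 of 10 tested thalamic genes, 9 of 9 myelin genes and 4 of 10 hypothalamic genes were lower, and 3 of 8 pallial excitatory genes were higher, with no tested gene of these lists called in the other direction. Of 14 striatal genes 1 was higher and 1 lower. With the thalamic, striatal and hypothalamic scores as covariates, the male minus female difference was 0.44 ± 0.25 for Cort, 0.54 ± 0.35 for Vip, 0.25 ± 0.21 for Sst and 0.60 ± 0.27 for Cck (limma adjusted p = 0.470, 0.542, 0.679 and 0.311). With the excitatory score alone the values were 0.49, 0.32, 0.40 and 0.26, and with the myelin score alone 0.42, 0.32, 0.47 and 0.27, and none of them passed. With 5 scores together, a setting added after the data were seen, Cck passed again (0.65 ± 0.18, adjusted p = 0.0400) and the other 4 did not. With the ribosomal array state as a covariate the differences of Cort (1.01), Sst (0.83) and Vip (0.84) stayed past the threshold. Sex, the series of rats and the difference in regional markers cannot be told apart in these samples.

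**Figure D3:**
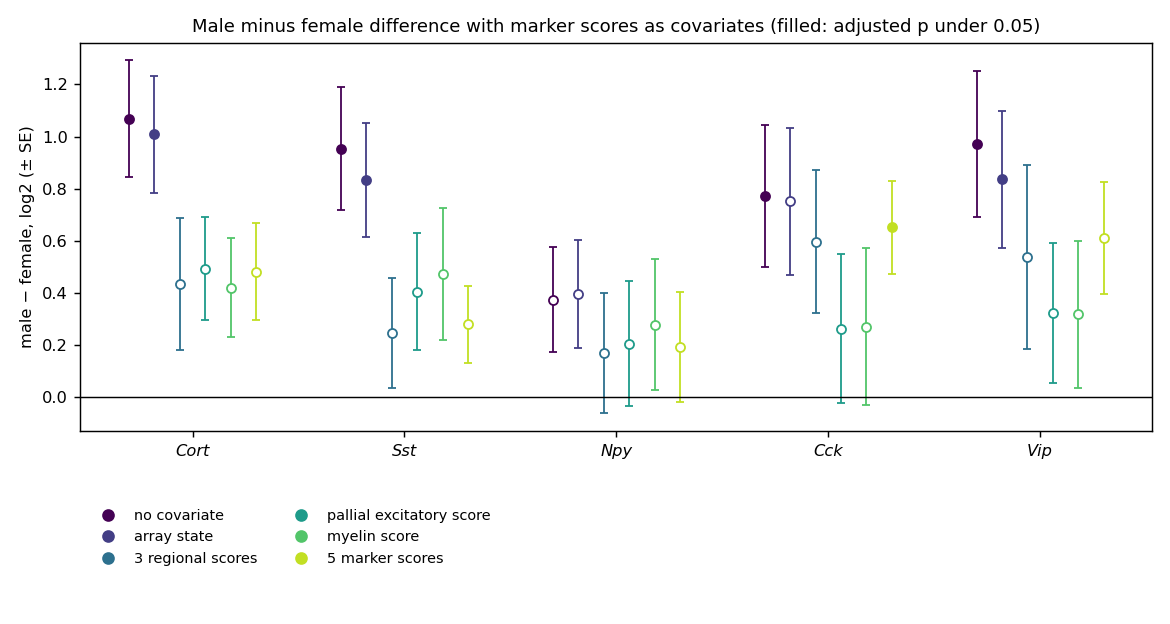
Male minus female log2 difference ± SE of each transcript (limma, 30 arrays) without a covariate and with the array state or marker scores as covariates, with filled points for adjusted p under 0.05 over all probes. Cort goes from 1.07 without a covariate to between 0.42 and 0.49 with the marker scores, and Cck is filled again with 5 scores (0.65).

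Predator-scent exposure gave no call among these transcripts in either sex. In females, with 10 exposed against 5 control rats, the log2 differences were -0.82 ± 0.34 for Cort (7.56 against 8.38, 95% interval -1.51 to -0.13, limma adjusted p = 0.153), -0.58 ± 0.30 for Npy, -0.52 ± 0.42 for Vip, -0.27 ± 0.35 for Sst and 0.09 ± 0.41 for Cck. By limma 0 of 5 passed, against 6.87% of all tested probes. An unadjusted p under 0.05 was found for 1 of 5 (Cort) and for 20.6% of all tested probes. In males the differences were 0.42 ± 0.34 for Cort, 0.35 ± 0.30 for Npy, 0.07 ± 0.35 for Sst, 0.06 ± 0.41 for Cck and 0.06 ± 0.42 for Vip. By limma 0 of 5 passed, against 0% of all tested probes. An unadjusted p under 0.05 was found for 0 of 5 and for 9.37% of all tested probes. These errors come from a spread shared by both sexes, and the females were more variable. In limma fits of 1 sex alone 0 of 5 passed in either sex. Male Cort then had 0.42 ± 0.18 (95% interval 0.04 to 0.80, adjusted p = 0.353) and male Npy 0.35 ± 0.14 (0.06 to 0.65, adjusted p = 0.300), so 2 of 5 had an unadjusted p under 0.05. Female Cort had -0.82 ± 0.42 (-1.71 to 0.07, adjusted p = 0.337), and 0 of 5 had an unadjusted p under 0.05. The share of all tested probes under it was not taken in these fits of 1 sex.

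Whether the female Cort difference passed depended on female control 3. Without that array the difference was -1.15 ± 0.33 and passed (limma adjusted p = 0.0339), as the 4 remaining controls have 7.58 to 9.35. For Cck the difference turned to -0.67 ± 0.21 (adjusted p = 0.0559) and for Vip it became -1.07 ± 0.36 (adjusted p = 0.0779), while Npy was at -0.55 and Sst at -0.31. In the same comparison over all arrays, 479 of 13308 tested probes were called lower. Among them were 2 of 8 pallial excitatory genes (median of the list -0.32) and 1 of 7 astrocyte genes. Of 9 myelin genes 8 were positive in sign (median 0.60), with 0 called by limma. An unadjusted p under 0.05 was found for 2 of these 9, against 20.6% of all tested probes. With marker scores in the fit, Cort stood at -0.68 ± 0.31 (3 regional scores), -0.46 ± 0.24 (myelin) and -0.32 ± 0.26 (excitatory). All 5 female controls and 3 of 10 exposed females were in the lower ribosomal state. With that state as a covariate the Cort difference was -1.14 ± 0.42 (adjusted p = 0.107), and among lower-state arrays alone -1.32 ± 0.47 (adjusted p = 0.150). In males each control was in the higher and each extreme rat in the lower state. The comparison with exposed as the mean of minimal and extreme could therefore not be made within a state. The 4 male minimal rats of the higher state had Npy of 10.04, 10.21, 10.37 and 10.41, against 10.00 to 10.58 in male controls. Their Cort was 8.85, 9.29, 8.92 and 9.68, against 7.85 to 9.14. These differences were not tested.

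The exposure difference was also compared between the sexes, as an interaction. The male difference exceeded the female one by 1.24 ± 0.48 for Cort and 0.93 ± 0.43 for Npy, with 0.58 ± 0.59 for Vip, 0.34 ± 0.50 for Sst and -0.04 ± 0.58 for Cck. By limma 0 of 5 passed (adjusted p = 0.132 for Cort and 0.215 for Npy), against 4.49% of all tested probes. An unadjusted p under 0.05 was found for 2 of 5 and for 20.2% of all tested probes. Without female control 3 the Cort interaction was 1.57 ± 0.44 and passed (limma adjusted p = 0.0383), and that of Cck turned from -0.04 to 0.73 ± 0.29 (adjusted p = 0.136).

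Extreme and minimal responders did not differ past the threshold in any of the 5 transcripts. In females the differences were -0.59 ± 0.41 for Sst, -0.40 ± 0.49 for Vip, -0.34 ± 0.39 for Cort, -0.21 ± 0.35 for Npy and 0.33 ± 0.47 for Cck. The 95% interval for Sst was -1.43 to 0.25. Its value was -0.01 ± 0.30 with the 3 regional scores as covariates, -0.27 ± 0.37 among higher-state arrays and -2.28 ± 0.60 (adjusted p = 0.193) among lower-state arrays, which hold 1 female extreme rat. In the same comparison 0 of 14 striatal genes (median -0.42) and 10 of 10 thalamic genes (median 0.53) were positive in sign, and 0 of them passed in limma. By limma 0 of 5 passed, against 0.128% of tested probes. An unadjusted p under 0.05 was found for 0 of 5 and for 9.48% of tested probes. Arrays of the same number deviated together in these 2 groups, so a limma fit of the 10 arrays with the number as a block was added after the data were seen. Cort was lower in the extreme rat of 5 of 5 pairs (-0.69, -0.28, -0.46, -0.21 and -0.04), at -0.34 ± 0.10 (95% interval -0.57 to -0.10, adjusted p = 0.471). By limma 0 of 5 transcripts passed in that fit and 1 of 5 (Cort) had an unadjusted p under 0.05. A two-sided exact sign-flip permutation test over the 5 pairs gave p = 0.0625 for Cort, the smallest it can give. The labels name no pairs, and the pairing was chosen from these same arrays. The interval and p of the paired fit and test are therefore a description only. In males the differences were -0.39 ± 0.39 for Cort, 0.37 ± 0.35 for Npy, -0.29 ± 0.49 for Vip, -0.16 ± 0.47 for Cck and -0.13 ± 0.41 for Sst. By limma 0 of 5 passed, against 0% of tested probes. An unadjusted p under 0.05 was found for 0 of 5 and for 9.99% of tested probes. In the limma fit of males alone Npy had 0.37 ± 0.16 (95% interval 0.03 to 0.71, adjusted p = 0.324), and it was the 1 of 5 with an unadjusted p under 0.05. The share of all tested probes under it was not taken in this fit or in the paired one. All 5 male extreme rats but only 1 male minimal rat were in the lower ribosomal state. That minimal rat (rat 1) had the highest Npy of its group (10.87), and among lower-state arrays the Npy difference was -0.12. Response and array state can therefore hardly be told apart in males. Between the sexes the extreme minus minimal difference itself differed by -0.48 ± 0.66 (Cck) to 0.58 ± 0.49 (Npy). By limma 0 of 5 passed, against 0.0526% of tested probes. An unadjusted p under 0.05 was found for 0 of 5 and for 11.8% of tested probes.

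**Figure D4:**
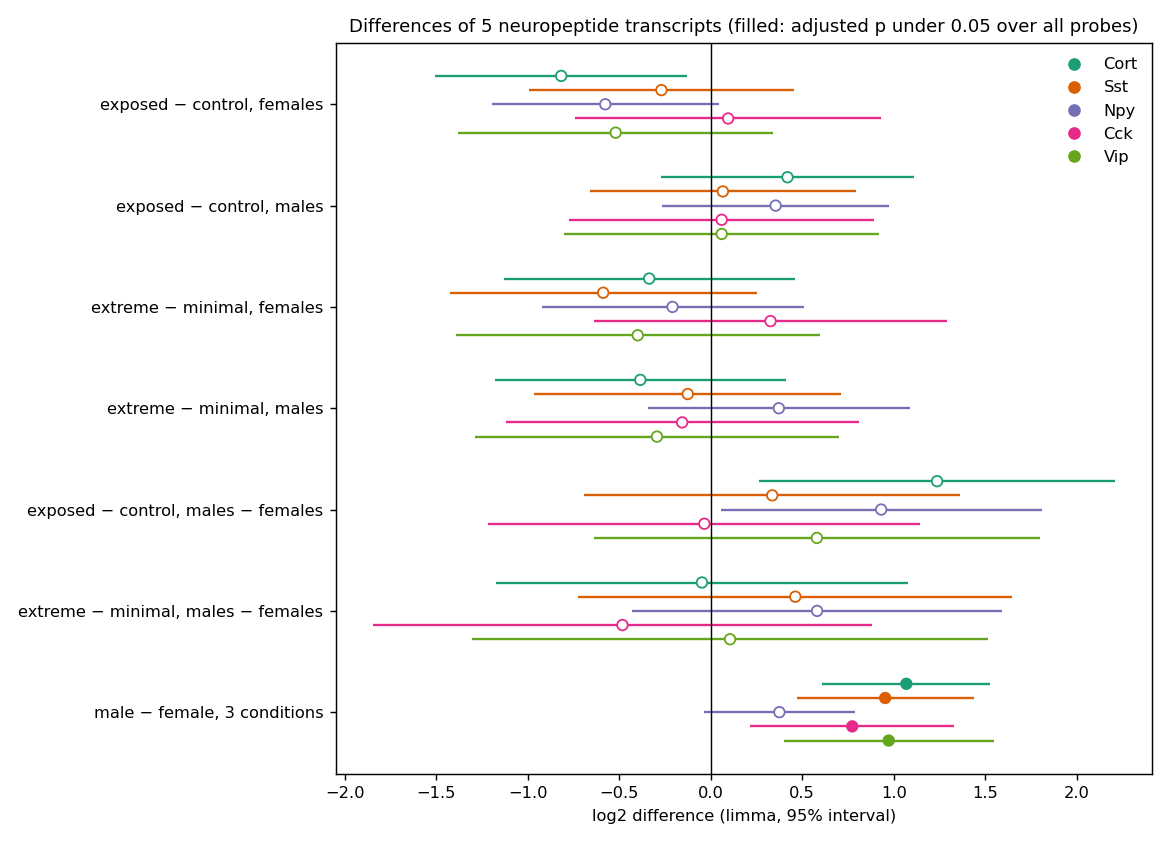
Log2 differences with 95% intervals (x axis) of the 5 transcripts in 7 comparisons (rows), from 1 limma fit over 30 arrays, with filled points for adjusted p under 0.05 over all tested probes. Filled points appear only in the male minus female row, for Cort, Sst, Cck and Vip. In this fit the intervals within a sex cross 0 except that of Cort in exposed against control females (-1.51 to -0.13), which crosses 0 in a fit of females alone (-1.71 to 0.07). In a fit of males alone those of Cort (0.04 to 0.80) and Npy (0.06 to 0.65) in exposed males and of Npy in extreme against minimal males (0.03 to 0.71) do not. Male controls were all in the higher and male extreme rats all in the lower ribosomal state.

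Across arrays the transcripts fell into partly shared patterns. Deviations from the group means were correlated over all 30 arrays, with 100000 permutations within groups and adjustment over the 10 pairs. Vip and Cort (Pearson r = 0.78, Spearman rho = 0.71), Cck and Vip (0.75, 0.57), Cort and Sst (0.66, 0.67), Cort and Cck (0.66, 0.54) and Sst and Vip (0.49, 0.42) passed by Pearson r, at adjusted permutation p = 0.0013, 0.00568, 0.00397, 0.00295 and 0.0252. By rho, Sst and Vip did not pass (adjusted permutation p = 0.0745), whereas Sst and Npy (r = 0.54, rho = 0.61) and Cort and Npy (0.45, 0.51) passed by rho only (adjusted permutation p = 0.00745 and 0.0155, against 0.176 and 0.0807 by r). Npy and Vip (0.29, 0.33), Sst and Cck (0.09, 0.20) and Npy and Cck (-0.02, 0.13) passed by neither. The unadjusted permutation p of the 5 pairs that passed by r were 0.00013, 0.00227, 0.00119, 0.00059 and 0.0126, in the same order.

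Some calls were lost when arrays were left out or sexes were taken alone. Without female control 3 and female minimal 2, the relation of Cck and Vip was 0.43 (adjusted permutation p = 0.118). Without female extreme 2 and 3, that of Sst and Vip was 0.47 (0.117), while Cort and Sst (0.72), Cort and Cck (0.75) and Cort and Vip (0.77) passed. The arrays left out were those farthest from the median of the first gene, so female control 3 stayed in the Cort pairs. Its deviations were -1.34 for Cort, -3.07 for Cck and -2.21 for Vip, and the Cort relations without it were not tested. Within the 15 males only Cort and Cck passed (r = 0.79, adjusted permutation p = 0.0315), with 0.64 for Cck and Vip and -0.14 for Sst and Vip. Within the 15 females 5 pairs passed, from 0.57 (Sst and Vip) to 0.85 (Cort and Vip). Among the 16 higher-state arrays 2 pairs passed, and among the 14 lower-state arrays 4. When deviations were taken also from the 3 regional scores, 9 of 10 pairs passed, including Sst and Cck (0.60) and Npy and Cck (0.56), and the exception was Sst and Npy (0.40, adjusted permutation p = 0.0809).

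**Figure D5:**
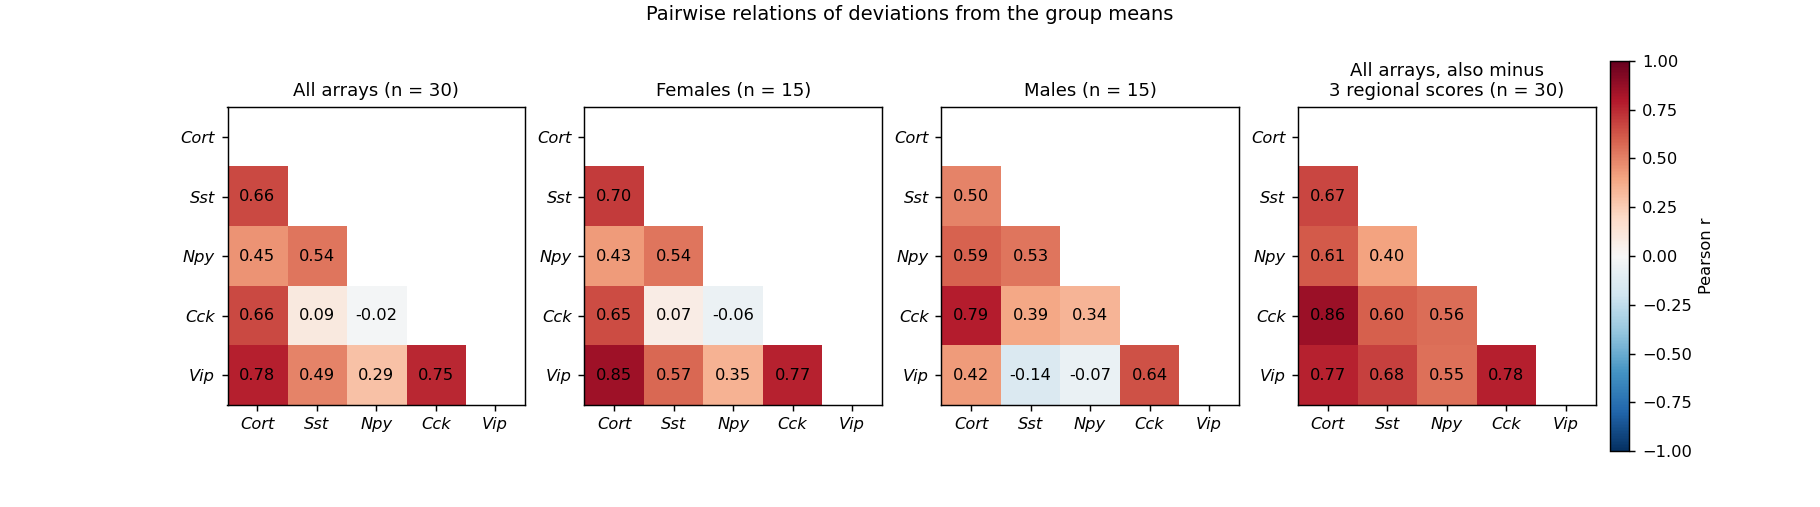
Pearson r of each pair of transcripts after subtracting group means, as colour and printed number, over all 30 arrays, 15 females, 15 males, and all arrays after also removing 3 regional scores. Cort has r of 0.66 to 0.78 with Sst, Cck and Vip over all arrays, and the cell of Sst and Cck goes from 0.09 to 0.60 once regional scores are removed.

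Set against marker scores, 40 relations were computed, of which 7 passed by Pearson r. Cort was related to the myelin score (r = -0.74, rho = -0.70, adjusted permutation p = 0.00347), to the excitatory score (0.70, 0.61, p = 0.0079 by the same permutation test) and to the mean of 26 GABA and interneuron genes (0.59, 0.55, p = 0.0179 likewise). Sst was related to the GABA and interneuron score (0.89, 0.81, adjusted permutation p = 0.00347) and to the thalamus score (-0.73, -0.57, p = 0.0179 by permutation). Without the 2 arrays farthest from the median these values were -0.61, 0.75 and 0.52 for Cort and 0.72 and -0.61 for Sst. Vip was related to the excitatory score (0.63, 0.52, adjusted permutation p = 0.0225, and 0.63 without 2 arrays). Cck was related to the astrocyte score (-0.58, -0.69, adjusted permutation p = 0.00347, and -0.53 without 2 arrays). For Npy 0 of 8 relations passed. By rho, Sst with the thalamus score and Vip with the excitatory score did not pass (adjusted permutation p = 0.0633 for each). Sst with the excitatory score (r = 0.63, rho = 0.62) and Cort with the choroid plexus score (-0.57, -0.58) passed by rho only. Their adjusted permutation p was 0.03914 by rho and 0.06225 by r. Sst with the thalamus score had r = -0.77 in females and 0.27 in males. The relation of Cck to the striatal score, -0.69, did not pass and was -0.17 without female control 3 and female extreme 1. Within males alone it was -0.62, which was not tested.

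Female control 3 and male control 3 had the highest striatal scores of their groups, 2.31 and 1.08. In both groups that rat had the lowest Cort (7.04 and 7.85), Cck (9.99 and 13.10) and Vip (7.28 and 9.05). Sst in the same rats was 9.69 and 10.54, the middle value of each group. The rats with the highest striatal score in the other 4 groups did not show this for all 3 transcripts. Female extreme 1 (1.45) was lowest in its group for Cck (12.59) but not for Vip (8.78), and male extreme 2 (0.99) was lowest for Vip (9.36) but not for Cck (13.84). Female minimal 3 (1.31) and male minimal 3 (-0.36) were lowest in their groups for none of the 3. Female extreme 2, with the highest thalamic score, had the lowest Sst (7.35), while its Cck (13.91) was the highest of its group. What these differences in tissue contribute to each transcript was not tested.

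For each transcript the named genes with the most similar deviations over 30 arrays, among 9164 others, were listed as a description. For Cort these were Rasl11b (r = 0.92), Hs3st2 (0.90), Crhbp (0.88), Dtx4 (0.86) and Stx1a (0.86). For Sst they were Tac3 (0.87), the neurokinin B precursor, Egr4 (0.83), Crhbp (0.83), which encodes the binding protein of corticotropin-releasing hormone, Slitrk1 (0.82) and Itpka (0.81). Cck stood nearest to the GABA-B receptor subunit Gabbr2 (0.90), Mfsd4a (0.88), Klf6 (0.87), Olfm1 (0.85) and the synaptic vesicle gene Syp (0.84). Vip stood nearest to Cxxc5 (0.86), Pard6a (0.83), Fhl2 (0.78), Cort (0.78) and Hs3st2 (0.78). Npy had the weakest neighbours, with Mok (0.75), Fbxo39 (0.69), Klf13 (0.69), Lamp5 (0.68) and Chrm4 (0.68). These arrays share dissection and array state, and the difference between the sexes in likeness was not tested. Tac3 with Sst had r = 0.93 in females and 0.11 in males, whereas Cxxc5 with Vip had 0.87 and 0.90.

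Of 15 receptor genes for these peptides, 7 were tested, and between the sexes 3 were higher and 1 lower in males, where 19.2% of all probes passed. The tested genes were Sstr1, Sstr2, Sstr4, Npy5r, Cckbr, Vipr2 and Adcyap1r1. Males were higher for the somatostatin receptors Sstr1 (1.06 ± 0.24, limma adjusted p = 0.00318) and Sstr2 (0.65 ± 0.19, adjusted p = 0.0149) and for the cholecystokinin receptor Cckbr (0.73 ± 0.15, adjusted p = 0.00116). They were lower for the VIP receptor Vipr2 (-0.67 ± 0.19, adjusted p = 0.0143). The median of the 7 was 0.17. In exposed females Cckbr fell by 0.72 ± 0.22 (limma adjusted p = 0.0469), a call lost in 11 of 15 fits without an array, namely without any female control but rat 3, any female minimal but rat 4, or female extreme 2, 3 or 5. It was lost in 8 of 15 other settings, among them the fit of females alone and those with 3 regional scores, the excitatory score or the myelin score. The 5 remaining comparisons gave 0 receptor calls by limma at the adjusted threshold and 0 at an unadjusted p under 0.05.

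Of 12 genes that cut, amidate or package peptides, 10 were tested. In exposed females Scg2, encoding the granule protein secretogranin II, rose by 1.08 ± 0.23 (limma adjusted p = 0.00490), and the call held without any single array and in 13 of 15 other settings, but not in the fit of females alone or with 5 marker scores. Males were higher for the amidating enzyme Pam (0.35 ± 0.08) and the prohormone convertase Pcsk2 (0.44 ± 0.10) and lower for Tpst2 (-0.21 ± 0.05), a tyrosine sulfotransferase, and for Scg2 (-0.52 ± 0.15). The exposure interaction of Pcsk2 was 0.71 ± 0.21 (limma adjusted p = 0.0489), a call kept in 7 of 30 fits without an array, those without female control 3, female minimal 2 or 4, female extreme 4 or 5, or male extreme 1 or 2, and in 6 of 13 other settings.

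Among 35 further GABA and interneuron genes, 26 were tested, and 7 were higher and 3 lower in males, against 8.99% and 10.2% of all tested probes. The higher were Crhbp (0.79 ± 0.22), Tac3 (0.70 ± 0.21), Satb1 (0.56 ± 0.20), Reln (0.52 ± 0.15), Cnr1 (0.48 ± 0.15), Dlx1 (0.41 ± 0.14) and Lhx6 (0.30 ± 0.09), the last a factor that specifies somatostatin and parvalbumin interneurons. The lower were Calb2 (-0.56 ± 0.18), Kcnc1 (-0.41 ± 0.15) and Gad1 (-0.39 ± 0.11), the GABA-synthesizing enzyme. The median of the 26 was 0.01, against -0.01 over all tested probes. In exposed females 2 of the 26 passed, against 6.87% of all probes: Erbb4 fell by 0.25 ± 0.06 (limma adjusted p = 0.0136, not past the threshold without female control 2) and the kainate receptor gene Grik1 rose by 0.32 ± 0.08 (adjusted p = 0.0149, not past it without female control 3). The exposure interaction of Grik1 was -0.40 ± 0.11 (limma adjusted p = 0.0369) and passed in 18 of 30 fits without an array. It was lost without female control 1, 2 or 3, female minimal 1 or 5, female extreme 3, male control 2, 3 or 5, male minimal 1 or 4, or male extreme 4. With the array state as a covariate the values were -0.23 ± 0.08 for Erbb4, 0.31 ± 0.10 for Grik1 and -0.39 ± 0.16 for its interaction, and none of the 3 passed in limma (adjusted p = 0.0816, 0.0703 and 0.216). Erbb4 and Grik1 were not called among lower-state females either, nor Grik1 in females alone or with 5 scores, and its interaction was not called with the 3 regional, the excitatory or the 5 scores.

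Of 21 other neuropeptide genes, 19 were tested. Males were higher for Grp (0.65 ± 0.16) and Nmb (0.39 ± 0.14), which encode bombesin-like peptides, and lower for Pmch (-1.95 ± 0.53), Trh (-1.64 ± 0.45), Pomc (-0.45 ± 0.11) and Hcrt (-0.36 ± 0.10), which are peptides of hypothalamic neurons. The hypothalamus score, which includes Pmch, Trh, Pomc and Hcrt, reached 1.32 in single females. Over these lists the sex comparison gave 24 calls among 62 tested genes (38.7%, against 19.2% of all probes), and 0 of 24 passed in limma with the 3 regional scores, with the excitatory score, with the myelin score or with all 5 scores as covariates. Over all tested probes the same covariates took the calls from 2553 to 135, 259, 141 and 502. For Pmch, Trh, Pomc and Hcrt the fits with the 3 regional or all 5 scores decide nothing, since the hypothalamus score contains these genes. The calls of Satb1, Dlx1, Kcnc1 and Nmb passed in 9 to 12 of 30 fits without an array, Calb2 in 25 (lost without female control 4 or 5, female extreme 2 or 3, or male control 1), Cnr1 in 29 (lost without female control 5) and each of the other 18 in 30. With the replicate number as a block, Kcnc1 and Nmb did not pass.

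Where a list had no call, its 2 genes with the smallest unadjusted p are given, and none of these passed in limma. In exposed females these were, among other neuropeptides, the hypothalamic peptides Pmch (2.43 ± 0.79, adjusted p = 0.0626) and Hcrt (0.44 ± 0.15, adjusted p = 0.0719). In exposed males they were Vipr2 (-0.19 ± 0.29) and Cckbr (-0.14 ± 0.22), Scg5 (0.16 ± 0.09) and Pcsk2 (0.24 ± 0.15), Lhx6 (-0.36 ± 0.14) and Prox1 (-0.07 ± 0.05), and the oxytocin and vasopressin precursors Oxt (-0.66 ± 0.43) and Avp (-0.79 ± 0.55). For the exposure interaction they were Cckbr (0.58 ± 0.31) and Vipr2 (-0.41 ± 0.41), and Pmch (-2.74 ± 1.12) and Avp (-1.81 ± 0.77). Between extreme and minimal females Vgf, which encodes a granule protein, had 0.79 ± 0.19 (adjusted p = 0.123) and Oxt -0.92 ± 0.49. The GABA-synthesizing enzyme Gad2 had -0.61 ± 0.36, the cannabinoid receptor Cnr1 -0.44 ± 0.26, Vipr2 0.68 ± 0.33, the neuropeptide Y receptor Npy5r 0.23 ± 0.12, Tpst2 0.18 ± 0.09 and Scg5 0.17 ± 0.10. Between extreme and minimal males the values were 0.22 ± 0.07 for Tpst1, -0.19 ± 0.09 for Tpst2, -0.19 ± 0.13 for Id2, -0.31 ± 0.26 for Reln, 0.60 ± 0.46 for Cartpt, -0.20 ± 0.19 for Crh, 0.08 ± 0.10 for Adcyap1r1 and -0.27 ± 0.42 for Sstr1. Between the sexes the response difference itself differed by -0.82 ± 0.27 for Vgf (adjusted p = 0.220), -0.50 ± 0.27 for Crh, 0.90 ± 0.50 for Gad2, -0.25 ± 0.18 for Id2, -0.37 ± 0.13 for Tpst2, 0.21 ± 0.10 for Tpst1, -0.29 ± 0.16 for Npy5r and -0.66 ± 0.47 for Vipr2.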

How the data were processed

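Amygdala RNA was hybridised to Illumina BeadChips. The authors deposited 1 log2 intensity per probe and array, for 22523 probes. Their log2 scale was read from the range (6.38 to 15.1), all arrays share 1 median, and the normalization is not given in the sources used here. A second deposited table was not used, since its 60 value columns match no sample name. Groups and sexes came from the labels. Replicate numbers run in the order in which the samples of a group are listed, and the sample titles name rats, not pairs. Probe symbols came from the platform annotation.

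Group means were fitted with limma 3.58.1 (R 4.3.3) with 24 residual degrees of freedom, for 7 comparisons, with Benjamini-Hochberg adjustment over 13308 probes and a threshold of 0.05. The exposed group is the mean of minimal and extreme. Relations between transcripts were tested by permutation in Python 3.11.15. Both were tested on simulated data. The named genes are the 5 members, for each the 5 most similar genes, and, of the lists of receptors, peptide processing, interneuron and other neuropeptide genes, each gene called in a comparison or, where a list had none, the 2 with the smallest p. The regional, astrocyte, choroid plexus and array state lists were used as scores. A microglia list gave 0 of 7 limma calls in every comparison at the adjusted threshold and up to 1 at an unadjusted p under 0.05. The members and all lists were chosen with earlier results of these data known.

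Same-numbered arrays were compared by the correlation of their deviations from group means. Every pair of female minimal and female extreme was above 0.1 (0.146 to 0.687), so these groups were taken as paired by number on the data alone, and 0 of the other 14 pairs of groups met this. The reported fits use no block, except an added paired fit of these 2 groups, and fits of 1 sex are given beside those of all arrays. Other settings were tried (filters, normexp with an offset of 16, cyclic loess, array weights, robust variances, the replicate block, array state and marker scores as covariates, arrays left out). The sex labels were not checked against sex-linked genes.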

Additional observations from a re-analysis of the deposited data

Results flagged for a closer look

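Within a group of 5 arrays, 3 values stood apart from the other 4 by a gap that was large against the range of the group (Dixon's criterion at the 95% level). They were Cck in female control 3, at 9.99 against 13.57 to 14.18 in the other female controls, Vip in male control 3, at 9.05 against 10.19 to 10.54, and Cort in male extreme 1, at 8.28 against 8.86 to 9.09. The criterion was applied to 30 groups of values, and chance flags about 1 in 20. Without female control 3 the male minus female difference of Cck was 0.52 ± 0.13 (limma adjusted p = 0.00846), against 0.77 ± 0.27 with it.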

How the results depend on the processing

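The comparisons are named here as exposure (exposed minus control), response (extreme minus minimal) and sex (male minus female), and values are log2 differences or counts of calls by limma. In the fits of all arrays 914 probes passed for female exposure, 0 for male exposure, 17 for female response, 0 for male response, 597 for the exposure interaction, 7 for the response interaction and 2553 for sex. Apart from sex, differences that turned sign under another setting had not passed. Without the filter on dim probes, probe calls came to 4 (the response interaction). With normexp correction, differences that turned were Cort 0.20 (the response interaction), and probe calls came to 3 (the response interaction). With array weights, differences that turned were Cck -0.24 (female exposure) and Cck 0.29 (the exposure interaction), and probe calls came to 194 (male exposure), 10 (female response), 201 (male response), 1403 (the exposure interaction) and 3 (the response interaction). With robust variances and a trend, probe calls came to 3 (the response interaction). With 1 probe per gene, probe calls came to 531 (female exposure), 309 (the exposure interaction) and 4 (the response interaction). With only the arrays of the sex compared, probe calls came to 352 (female exposure), 7 (female response), 53 (male exposure) and 76 (male response). With the array state as a covariate, differences that turned were Cck -0.019 (female exposure), Sst 0.59, Vip 0.52 (male response), Cck 0.18 (the exposure interaction) and Cort 0.41 (the response interaction), and probe calls came to 26 (female response), 14 (the exposure interaction) and 1 (the response interaction). Among higher-state arrays, differences that turned were Cck -0.13 (female response), and probe calls came to 5 (female response). Among lower-state arrays, differences that turned were Npy -0.12, Vip 0.056 (male response), and probe calls came to 328 (female exposure), 5 (female response) and 0 (the response interaction). With 3 regional scores, differences that turned were Npy 0.031 (female response), Cck 0.10 (male response), Sst -0.064, Cck 0.074 (the response interaction) and Crhbp -0.040, Reln -0.13, Cnr1 -0.083, Kcnc1 0.073, Trh 0.22, Vipr2 0.11 (sex), probe calls came to 6 (male exposure) and 135 (sex), and 0 of the 5 passed for sex. With the excitatory score, differences that turned were Sst 0.20, Vip 0.036 (female exposure), Sst -0.078, Cck -0.074, Vip -0.11 (male exposure), Sst -0.28, Vip -0.15 (the exposure interaction) and Vip -0.14 (the response interaction), probe calls came to 7 (male exposure), 15 (the response interaction) and 259 (sex), and 0 of the 5 passed for sex. With the myelin score, differences that turned were Sst -0.0051, Cck -0.015, Vip -0.037 (male exposure), Sst 0.032, Cck 0.0090 (male response), Sst -0.0012 (the exposure interaction) and Cort 0.11 (the response interaction), probe calls came to 3 (male exposure), 41 (female response), 13 (the response interaction) and 141 (sex), and 0 of the 5 passed for sex. With 5 marker scores, chosen after seeing the data, differences that turned were Sst 0.21, Vip 0.31 (female exposure), Cck -0.10, Vip -0.10 (male exposure), Sst 0.18, Npy 0.14 (female response), Cck 0.055 (male response), Sst -0.18, Vip -0.41 (the exposure interaction), Sst -0.35 (the response interaction) and Crhbp -0.0066, Reln -0.13, Cnr1 -0.090, Kcnc1 0.078, Trh 0.22, Vipr2 0.11 (sex), probe calls came to 19 (male exposure), 75 (male response), 1026 (the exposure interaction), 47 (the response interaction) and 502 (sex), and 1 of the 5 passed for sex. With the replicate block in female minimal and extreme arrays only, chosen after seeing the data, probe calls came to 2 (female response). Of 10 pairs of transcripts, 5 passed. That count was 9 with regional scores removed, 3 without the 2 farthest arrays, 1 within males, where Sst and Vip turned to -0.14, and 2 within the higher state. Leaving out 1 array at a time gave ranges with a turned sign or a moved count. For female exposure the range was probe calls 389 to 1178, Cck -0.67 to 0.37 and calls among the 5 0 to 1. For the exposure interaction the range was probe calls 293 to 990, Cck -0.31 to 0.73 and calls among the 5 0 to 1. For the response interaction the range was Vip -0.17 to 0.51, Cort -0.34 to 0.27, probe calls 3 to 39 and Sst -0.025 to 0.91. For female response the range was Npy -0.49 to 0.25 and probe calls 12 to 29. For male exposure the range was Cck -0.13 to 0.18, Vip -0.20 to 0.18, Sst -0.019 to 0.15 and probe calls 0 to 3. For male response the range was probe calls 0 to 51 and Sst -0.19 to 0.0060. The causes of these changes were not tested. The replicate number as a block left the differences as they were and changed no call of the 5 transcripts (4 passed for sex, Cck adjusted p = 0.0412), but Kcnc1 (-0.41, adjusted p = 0.0658) and Nmb (0.39, adjusted p = 0.0555) lost their limma calls for sex. A block for slide, neqc on scanner values and other probes of a gene were not run, as no slide or column match was available and each gene has 1 probe. Within the higher state only female response could be fitted, and within the lower state male exposure, the exposure interaction and sex could not, since a group was missing. The lower state held 1 female extreme and 1 male minimal array, assumed to vary like the other groups. The 5 arrays a group limit the precision, and on 2 arrays Cort was not above the array median.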
